A study of Mus musculus with 6 samples.

Results

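The CDK inhibitors of the Cip/Kip family (Cdkn1a, Cdkn1b and Cdkn1c) and of the INK4 family (Cdkn2a, Cdkn2b, Cdkn2c and Cdkn2d) were measured in mouse tracheal epithelium repairing after inhalation of SO2. Their members were chosen by name: every probe set whose annotation gives exactly 1 of these symbols was taken, which found 9 of 45037 probe sets, and 7 of the 18193 genes that have a probe set of their own. Epithelium from adult male C57Bl/6 mice was compared 48 h after injury (48 hpi), following 4 h in 500 ppm SO2, with epithelium of control mice of the same strain and sex, which the labels describe only as normal. Each group had 3 samples, each a pool of the tracheas of 4 mice, and neither group carried a transgene or a mutation. In both groups the epithelium was peeled off after Dispase digestion, trypsinized and depleted of CD45+ leukocytes, so a sample holds all remaining epithelial cells, not basal cells (BCs) alone.

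CDK inhibitors set the pace at which a cell passes through G1. The INK4 proteins bind Cdk4 and Cdk6 and keep them from pairing with D-type cyclins, whereas the Cip/Kip proteins bind whole cyclin-CDK complexes, above all those of Cdk2, and also help D-type cyclins to assemble with their kinases. In the trachea SO2 kills the luminal cells, and the surviving BCs spread, divide and give rise to new secretory and ciliated cells.

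At 48 hpi the INK4 genes Cdkn2c (p18Ink4c) and Cdkn2d (p19Ink4d) were higher than in control epithelium, 2.06-fold and 1.69-fold, and the Cip/Kip gene Cdkn1c (p57Kip2) was lower, its level in control epithelium being 1.90-fold that at 48 hpi. Cdkn1a (p21) and Cdkn1b (p27Kip1), both well above background, did not pass the test, nor did Cdkn2b (p15Ink4b), and the Cdkn2a probe set (p16Ink4a and p19Arf) stayed at background. Calls rest on limma with Benjamini-Hochberg adjustment over all 45037 probe sets and a threshold of 0.05. By this measure 3 of the 9 member probe sets were called, beside 28.4% of all probe sets. Of the 9, 2 were higher, beside 14.5% of all, and 1 was lower, beside 13.9% of all. Where only probe sets above background in at least 1 group were counted, 3 of 7 members were called, beside 46.4% of all such probe sets, 2 of them higher (beside 25.1%) and 1 lower (beside 21.3%). Among genes, taking the probe set that was brightest over the 6 arrays, 3 of 7 were called, beside 34.5% of all genes, again 2 higher (beside 18.4%) and 1 lower (beside 16.1%). With so few members these shares do not set them apart from probe sets in general. The median absolute change of the 7 genes was 0.35 on the log2 scale, against 0.22 over all genes. Over all probe sets above background in at least 1 group it was 0.34. These sets are unlike, since the 7 genes enter with 1 probe set each and include Cdkn2a, which was below background. No conclusion was drawn from these medians.

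Values are the log2 expression that the authors obtained by robust multi-chip analysis (RMA), changes are 48 hpi minus control, and SE is the standard error of the change. The median of the changes of all probe sets was -0.03. A level counted as above background if the group mean exceeded that of 95% of 81 probe sets for chemosensory receptors of the nose (Olfr, Vmn1r, Vmn2r and Taar genes), taken as silent in trachea. This limit was 4.81 at 48 hpi and 4.93 in control epithelium. Array medians ranged from 4.88 to 4.91 at 48 hpi and from 4.98 to 4.99 in control epithelium, and arrays of a group correlated with r between 0.990 and 0.996. Replicate 3 of the 48 hpi group stood somewhat apart, with r of 0.990 and 0.992 to the others, which correlated at 0.996. Control replicate 1 was alike in this, with r of 0.993 and 0.992 to the others, which also correlated at 0.996. Without either array Cdkn2c and Cdkn2d were still called higher and Cdkn1c lower. With 3 pools per group an exact two-sided permutation test cannot give a p below 0.1, and the labels name the replicates biological without saying whether they were prepared together. In such bulk samples fewer cells of a type and less RNA per cell cannot be told apart.

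**Figure D1:**
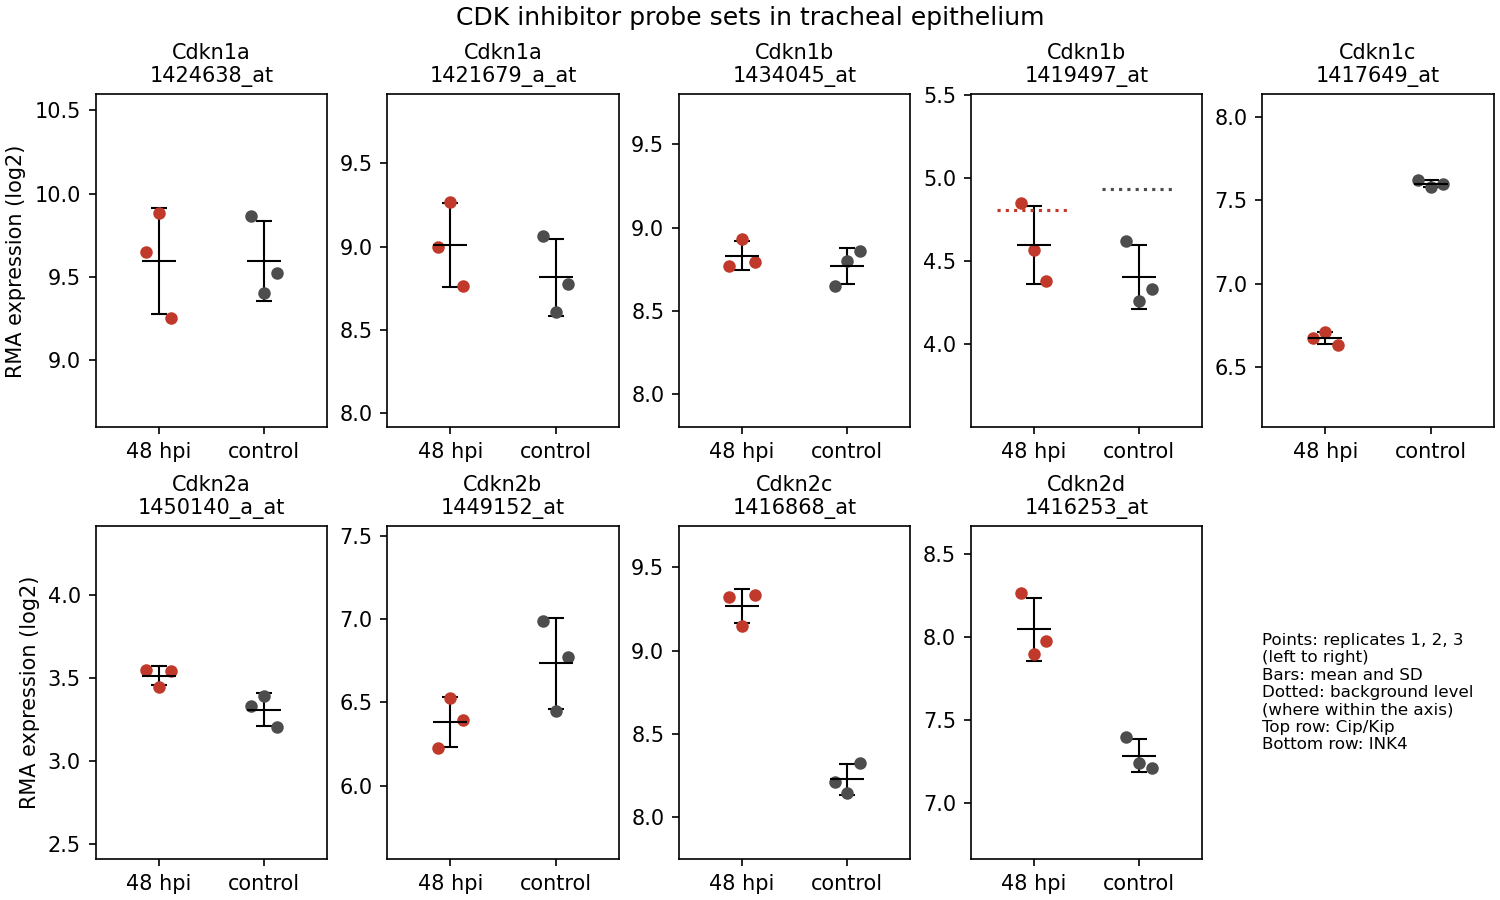
RMA expression (log2) of the 9 CDK inhibitor probe sets in each pool, with 48 hpi at the left and control at the right of each panel, Cip/Kip genes in the upper row and INK4 genes in the lower row. Points are replicates 1 to 3, bars are the mean and SD, and every panel spans the same log2 range. The groups are well separated for Cdkn1c, Cdkn2c and Cdkn2d, while those of Cdkn1a, Cdkn1b and Cdkn2b overlap.

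Among the INK4 genes, Cdkn2c encodes an inhibitor of Cdk4 and Cdk6 whose transcript is known to be made by dividing as well as by resting cells. Its probe set (1416868_at) read 9.32, 9.15 and 9.33 in the 48 hpi pools, against 8.21, 8.14 and 8.33 in the control pools. The lowest 48 hpi pool lay 0.82 above the highest control pool. The means were 9.27 ± 0.10 at 48 hpi and 8.23 ± 0.09 in control epithelium (SD, n = 3 each), a log2 change of 1.04 (SE 0.10, 95% confidence interval 0.82 to 1.26, adjusted p = 0.000254 by limma), or 2.06-fold with an interval of 1.76 to 2.40. A larger rise was found for 3.57% of all probe sets. Under all of the 21 alternative settings it stayed called, with changes between 0.92 and 1.38.

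Cdkn2d encodes the INK4 inhibitor whose level is known to oscillate with the cell cycle in cultured cells. Probe set 1416253_at read 8.26, 7.90 and 7.98 at 48 hpi, against 7.40, 7.25 and 7.21 in control pools. All 48 hpi pools were again above all control pools, with a gap of 0.50, and replicate 1 was the highest of each group. The means were 8.04 ± 0.19 at 48 hpi and 7.29 ± 0.10 in control epithelium (SD, n = 3 each), a log2 change of 0.76 (SE 0.12, 95% confidence interval 0.49 to 1.03, adjusted p = 0.00228 by limma). This corresponds to 1.69-fold, with an interval of 1.40 to 2.04. A larger rise was found for 6.22% of all probe sets. It stayed called in all 21 alternative settings, with changes between 0.65 and 1.1.

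The RefSeq promoter windows of Cdkn2c and Cdkn2d (GRCm38.p6, 250 bases before to 50 after an annotated start) are shown because these genes moved in the same direction, with any match to a searched motif in capitals. The Cdkn2c window (chr4:109666707-109667006, minus strand) is the first of the windows listed for the gene, and its capitals mark a match to the E2F-like motif TTNNCGC whose first base is at position -25 from the start. The Cdkn2d window (chr9:21291160-21291459, minus strand) holds no E2F-like match, and its capitals mark a match to the p53 decamer motif that begins at position -102.
Cdkn2c: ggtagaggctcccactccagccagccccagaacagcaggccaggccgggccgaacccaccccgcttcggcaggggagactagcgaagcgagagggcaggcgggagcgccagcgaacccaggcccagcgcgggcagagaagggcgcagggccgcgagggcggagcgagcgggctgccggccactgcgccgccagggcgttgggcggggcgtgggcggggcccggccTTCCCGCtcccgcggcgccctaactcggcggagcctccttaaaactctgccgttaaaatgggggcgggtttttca
Cdkn2d: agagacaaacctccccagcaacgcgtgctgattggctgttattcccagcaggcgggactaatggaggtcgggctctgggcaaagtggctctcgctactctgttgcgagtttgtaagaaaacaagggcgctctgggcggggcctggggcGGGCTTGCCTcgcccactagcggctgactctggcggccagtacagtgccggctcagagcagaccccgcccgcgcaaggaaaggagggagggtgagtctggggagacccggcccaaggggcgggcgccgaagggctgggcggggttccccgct
The motifs were searched on both strands. TTNNCGC was present in 20.2% of 32851 promoter windows and in 4 of the 9 windows of the members, which are those of Cdkn2a, the first of Cdkn2c and the second of Cdkn1a. The E-box CACGTG was in 7.15% of all windows and in 1 of the 9 (the second of Cdkn2c). The forkhead core TGTTTAC was in 3.65% of all windows and in 0 of the 9. The p53 decamer, added after the other motifs, was in 8.36% of all windows and in 2 of the 9 (Cdkn2d and the first of Cdkn1a). Windows were matched for 6 of the 7 genes, all but Cdkn1c. The 2 INK4 genes that rose thus shared no searched motif in these windows, and a match describes the letters only.

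Cdkn2b encodes the INK4 inhibitor that is known as a target of TGF-beta signaling. Its probe set (1449152_at) read 6.23, 6.52 and 6.39 in 48 hpi pools, against 6.99, 6.45 and 6.77 in control pools. The groups overlapped, because 48 hpi replicate 2 was higher than control replicate 2. The log2 change was -0.35 (SE 0.15, adjusted p = 0.119 by limma), with means of 6.38 ± 0.15 at 48 hpi and 6.74 ± 0.27 in control epithelium (SD, n = 3 each). Whether Cdkn2b was called depended on the arrays used, while scaling altered the size of its change and gave no call. Without control replicate 2 the change was -0.50 with an adjusted p of 0.0397 by limma. Without control replicate 1 it was -0.23 (adjusted p = 0.295 by limma), and leaving out any other array gave no call either. With each array scaled to its hybridization controls (spiked-in RNAs) the change was -0.01 (adjusted p = 0.976 by limma).

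Cdkn2a lies beside Cdkn2b on chromosome 4 (RefSeq, GRCm38.p6) and encodes both p16Ink4a, an INK4 inhibitor, and p19Arf, which acts through Mdm2 on p53. Its probe set (1450140_a_at), for which the annotation does not say which of the transcripts it detects, read 3.55, 3.45 and 3.54 at 48 hpi, against 3.33, 3.39 and 3.20 in control pools. All of these values were below the background level of their group. The arrays did not overlap, with a gap of 0.05, but the change of 0.20 (SE 0.09) did not pass the test (adjusted p = 0.14 by limma), and at this level no fold is given. Non-overlap was common, with the arrays of 4 of the 9 member probe sets apart, beside 43.4% of all probe sets. Of these members 3 were higher, beside 21.0% of all, and 1 was lower, beside 22.4%.

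Among the Cip/Kip genes, Cdkn1c encodes p57Kip2, an inhibitor known from cells that leave the cycle during development, and it is imprinted, with expression from the maternal allele. Its probe set (1417649_at) read 6.67, 6.71 and 6.63 in 48 hpi pools, against 7.62, 7.58 and 7.60 in control pools. The pools of each group lay very close together, and the highest 48 hpi pool was 0.87 below the lowest control pool. The means were 6.67 ± 0.04 at 48 hpi and 7.60 ± 0.02 in control epithelium (SD, n = 3 each), a log2 change of -0.93 (SE 0.08, 95% confidence interval -1.11 to -0.74, adjusted p = 0.000185 by limma). The level in control epithelium was 1.90-fold that at 48 hpi, with an interval of 1.67 to 2.16, and 3.47% of all probe sets had a larger fall. The call was lost, at -0.59 with an adjusted p of 0.0627 by limma, after each array was scaled to its hybridization controls, spiked-in RNAs. This setting moved the median change of all probe sets to 0.32. It shifts all probe sets of an array alike, so the change of Cdkn1c relative to the median, -0.90, cannot differ from that without the scaling. That value therefore does not bear on the lost call.

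Of 9 fibroblast and cartilage markers 7 were not called and 2 were lower at 48 hpi, Dcn by a log2 change of -1.85 (SE 0.38) and Chad by -2.68 (SE 0.42), and the median change of the list was 0.08. The log2 of its summed signal, which was mostly that of Chad and Dcn, was 9.11 to 10.59 at 48 hpi and 11.98 to 12.46 in control pools. The collagen genes Col1a1, Col1a2 and Col2a1 had means of 5.23, 4.44 and 3.95 at 48 hpi and 4.79, 3.86 and 3.96 in control epithelium. Of these means only that of Col1a1 at 48 hpi was above the background level of its group. Whether the pools held fibroblasts or cartilage cells was not tested. The part of Chad- and Dcn-expressing cells in the change of Cdkn1c was not tested.

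Cdkn1a encodes p21, the Cip/Kip inhibitor best known as a target of p53, and it had 2 probe sets. The brighter (1424638_at) read 9.65, 9.88 and 9.25 in 48 hpi pools, against 9.86, 9.40 and 9.52 in control pools. Both groups covered much the same range, with the lowest value in 48 hpi replicate 3. The means were 9.59 ± 0.32 at 48 hpi and 9.60 ± 0.24 in control epithelium (SD, n = 3 each), a log2 change of -0.0014 (SE 0.18, adjusted p = 0.997 by limma). The 95% confidence interval of -0.42 to 0.41, or 0.749-fold to 1.33-fold, is wide enough to include a moderate change in either direction.

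The other Cdkn1a probe set (1421679_a_at) read 9.0, 9.27 and 8.77 at 48 hpi, against 9.06, 8.61 and 8.77 in control pools. It ranked the pools of each group much as the brighter one did, with 48 hpi replicate 2 and control replicate 1 the highest. Its log2 change was 0.20 (SE 0.16, 95% confidence interval -0.17 to 0.56, adjusted p = 0.418 by limma). The first RefSeq promoter window of Cdkn1a (GRCm38.p6, chr17:29090729-29091028, plus strand) is shown for its p53 motifs, as other p53 targets were measured too. Its capitals mark 2 matches to the p53 decamer motif, which begin at positions -73 and -51 from the annotated start.
Cdkn1a: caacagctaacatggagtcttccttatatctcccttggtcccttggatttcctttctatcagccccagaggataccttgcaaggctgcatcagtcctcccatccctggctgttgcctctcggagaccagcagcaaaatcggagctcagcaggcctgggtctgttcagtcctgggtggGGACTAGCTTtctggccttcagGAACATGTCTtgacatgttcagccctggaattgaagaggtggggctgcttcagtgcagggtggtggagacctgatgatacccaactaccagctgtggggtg

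Cdkn1b encodes p27Kip1, which is known to accumulate in resting cells and to be controlled largely through breakdown of the protein, which these arrays do not measure. Its brighter probe set (1434045_at) read 8.77, 8.93 and 8.79 in 48 hpi pools, against 8.65, 8.80 and 8.86 in control pools. The groups overlapped, with means of 8.83 ± 0.09 at 48 hpi and 8.77 ± 0.11 in control epithelium (SD, n = 3 each). The log2 change was 0.06 (SE 0.10, adjusted p = 0.688 by limma), and its 95% confidence interval of -0.16 to 0.28 corresponds to 0.895-fold to 1.22-fold. The second probe set (1419497_at), below the background level in the mean of both groups, had a change of 0.19 (SE 0.15, adjusted p = 0.383 by limma).

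By family, 1 of the 5 Cip/Kip probe sets was lower and 0 were higher, and 2 of the 4 INK4 probe sets were higher and 0 were lower, beside 14.5% higher and 13.9% lower among all probe sets. Counts this small were not read against those shares. The median change of the brightest probe sets was -0.0014 over 3 Cip/Kip genes and 0.48 over 4 INK4 genes, beside -0.02 over all genes. Each family was mixed, since Cdkn1c moved while Cdkn1a and Cdkn1b did not pass the test, and Cdkn2b lay below zero while Cdkn2c and Cdkn2d rose. With so few genes the families were described and not tested against each other.

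**Figure D2:**
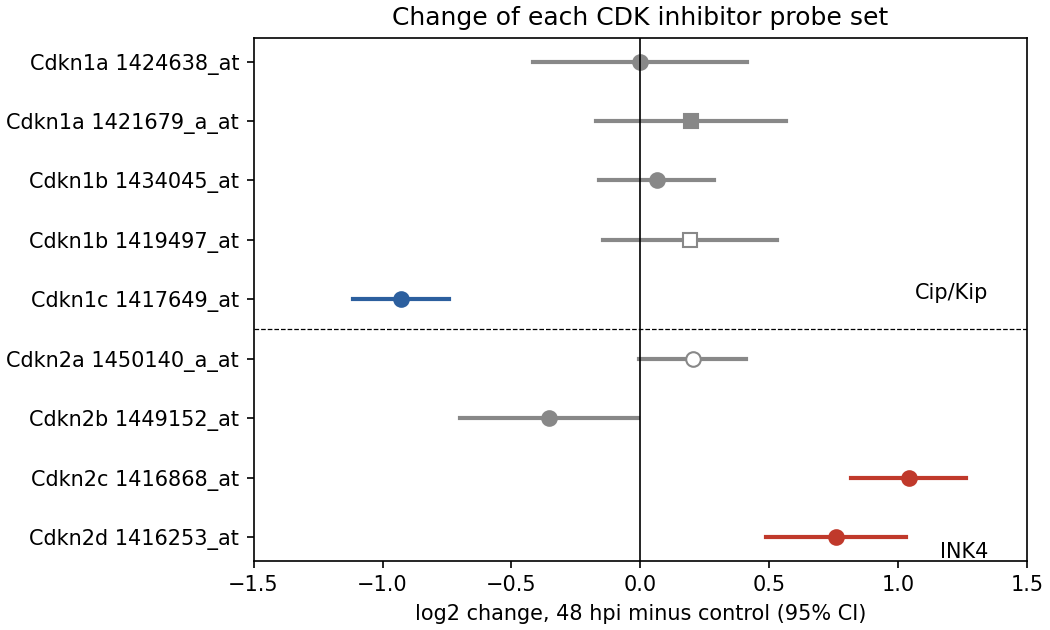
Log2 change (48 hpi minus control) of each CDK inhibitor probe set with its 95% confidence interval, Cip/Kip above the dashed line and INK4 below it. Red and blue mark probe sets called higher and lower, grey those not called, circles the brightest probe set of a gene, squares the other one, and open symbols levels below background. The intervals of Cdkn2c (0.82 to 1.26), Cdkn2d (0.49 to 1.03) and Cdkn1c (-1.11 to -0.74) lie away from zero. That of Cdkn2b (-0.70 to -0.01), which was not called after adjustment, only just excludes zero.

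**Figure D3:**
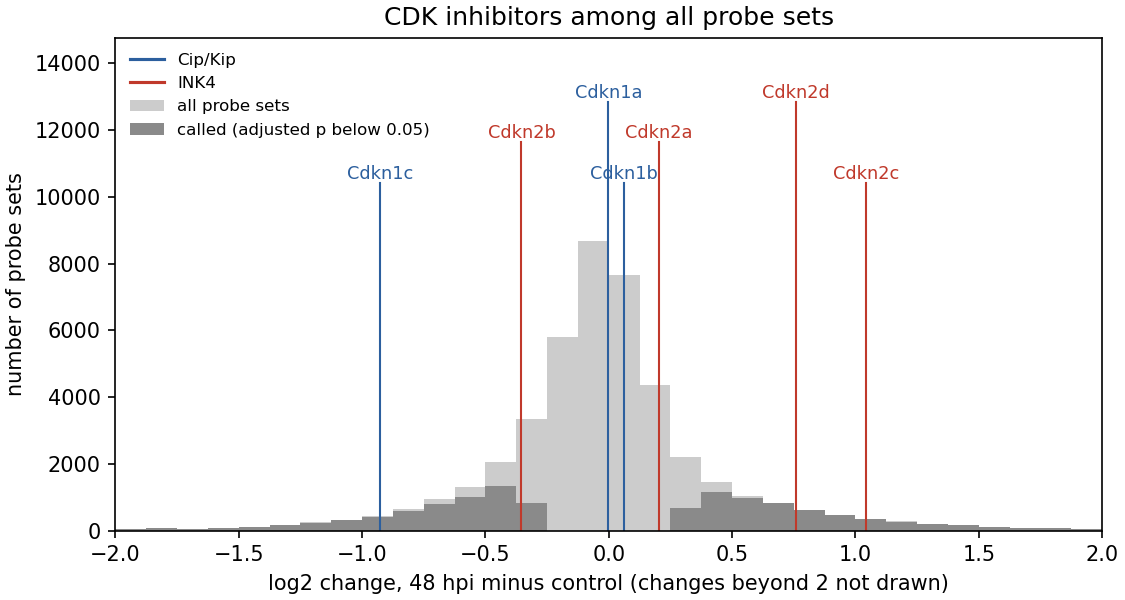
Number of probe sets (y axis) by log2 change, 48 hpi minus control (x axis), for all 45037 probe sets (light) and for those called (dark), with the brightest probe set of each CDK inhibitor as a vertical line whose height has no meaning. Changes beyond 2 in either direction, 524 probe sets, are not drawn. Cdkn2c and Cdkn1c lie in the outer parts of the distribution, where 3.57% of probe sets rose further and 3.47% fell further.

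Of the 9 G1 cyclins and kinases that the inhibitors act on, 8 were called higher at 48 hpi and 0 lower, beside 18.4% and 16.1% of all genes, and the median change was 1.09. With repeated quantile normalization 7 of the 9 were called higher. Cdk4, the main partner of the INK4 proteins, read 9.40, 9.0 and 9.16 in 48 hpi pools, against 8.18, 7.97 and 7.96 in control pools, a log2 change of 1.15 (SE 0.12). Its relative Cdk6 changed by 0.93 (SE 0.20) and Cdk2, the kinase that Cip/Kip proteins inhibit, by 1.09 (SE 0.13). Cdkn2c and Cdkn2d thus rose in the same pools as their target kinases, and no test was made of one change against another.

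D-type cyclins, which start the phosphorylation of Rb, had smaller changes than the later cyclins. Ccnd1 changed by 0.45 (SE 0.14) and Ccnd3 by 0.68 (SE 0.09), although another of its probe sets was called lower, at -1.29 (SE 0.13), while Ccnd2 at 0.22 did not pass the test (adjusted p = 0.253 by limma). Another Ccnd2 probe set was called higher, at 0.52 (SE 0.11, adjusted p = 0.0107 by limma). The E-type cyclins Ccne1 and Ccne2, partners of Cdk2, changed by 2.18 (SE 0.21) and 2.41 (SE 0.17), and Ccna2, the cyclin of S phase, by 3.20 (SE 0.11). The order of these changes is descriptive, since differences between genes were not tested. Of the retinoblastoma family, the substrates of these kinases, Rbl1 was higher by 1.76 (SE 0.15), and Rb1 at 0.28 was not called (adjusted p = 0.0527 by limma). Rbl2, which marks resting cells, was lower at -0.35 (SE 0.10, adjusted p = 0.032 by limma). With hybridization control scaling, and also with arrays set to a common median, the call of Rbl2 was lost. Under each of these scalings 2 of the family, Rbl1 and Rb1, were called higher. All 9 measured proliferation markers were higher, with a median change of 3.41, among them Mki67 at 3.47 (SE 0.12).

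Of 11 measured genes of the ubiquitin ligases that mark Cip/Kip proteins for breakdown, 7 were called higher, 0 lower and 4 not called, beside 18.4% of all genes higher, and the median change was 0.40. With repeated quantile normalization 5 were called higher and 1 lower. Skp2, which recognizes p27, read 6.87, 6.87 and 7.55 in 48 hpi pools, against 4.28, 4.86 and 4.99 in control pools. Every 48 hpi pool was above every control pool, by more than the spread within either group, and the change was 2.38 (SE 0.24). Other Skp2 probe sets above background at 48 hpi were called higher, at 2.82, 2.69 and 2.42, but another, at 0.14, was not called. The Skp2 cofactor Cks1b changed by 2.63 (SE 0.11) and Dtl, which directs p21 to breakdown in S phase, by 3.09 (SE 0.20). Another Dtl probe set above background, at 0.26, was not called. Ubac1, a subunit of the ligase that acts on p27 in G1, was higher by 0.98 (SE 0.10), while its catalytic partner Rnf123 was at -0.25 and was not called. The scaffolds Cul4a, Cul4b and Ddb1 were called at 0.27, 0.71 and 0.40, whereas Cul1, Rbx1 and Skp1 at 0.27, 0.22 and -0.09 were not.

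Of 18 measured p53 targets other than Cdkn1a, 4 were higher, 5 lower and 9 not called, beside 18.4% higher and 16.1% lower among all genes. The median change was -0.15, and with equal hybridization controls the counts were 4 and 1 and the median 0.20. Pmaip1 (Noxa), a pro-apoptotic gene, was higher by 1.87 (SE 0.32) and the nuclease gene Aen by 0.87 (SE 0.16), while Btg2, an antiproliferative gene, was lower at -1.34 (SE 0.16) and Bbc3 (Puma) at -0.58 (SE 0.11). Mdm2, which degrades p53 and is itself a target, read 8.65 ± 0.01 at 48 hpi and 8.68 ± 0.07 in control epithelium (SD, n = 3 each), a change of -0.03 (adjusted p = 0.845 by limma), and its relative Mdm4 was at -0.26 and was not called. Trp53 was not analysed here. Cdkn1a, with a change of -0.0014, thus lay between members of its target group that rose and members that fell.

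Among 17 transcription factors known to act on CDK inhibitor genes, 2 were higher and 5 lower, beside 18.4% and 16.1% of all genes. Their median change was -0.15. With equal hybridization controls 2 were higher and 0 lower, with a median of 0.19, and with repeated quantile normalization 2 were higher and 8 lower, with a median of -0.30. Foxo1 and Foxo3, known as activators of Cdkn1a and Cdkn1b, were lower at -0.63 (SE 0.10) and -0.77 (SE 0.11). A further probe set of each was also called lower, but others above background, at -0.04 for Foxo1 and -0.15 for Foxo3, were not called. Ets1, known to activate p16Ink4a in human fibroblasts, was lower at -0.85 (SE 0.11). E2f1, an S phase activator, was higher by 0.96 (SE 0.19). Of 11 Polycomb genes, whose products silence the Cdkn2a and Cdkn2b region, 5 were higher and 3 lower, beside 18.4% and 16.1% of all genes. Their median change was -0.03. The lower count was 0 with equal hybridization controls and 4 with repeated quantile normalization, while 5 stayed higher. Ezh2, the histone methyltransferase, was higher by 2.38 (SE 0.13), Bmi1 by 1.02 (SE 0.18), Suz12 by 0.93 (SE 0.11), Cbx2 by 0.82 (SE 0.14) and Eed by 0.62 (SE 0.09). Cbx7 was lower at -0.71 (SE 0.12), Phf19 at -0.31 and Ring1 at -0.27. Cdkn2a was below background in both groups and Cdkn2b was not called. A relation of the Polycomb changes to either gene was not tested.

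**Figure D4:**
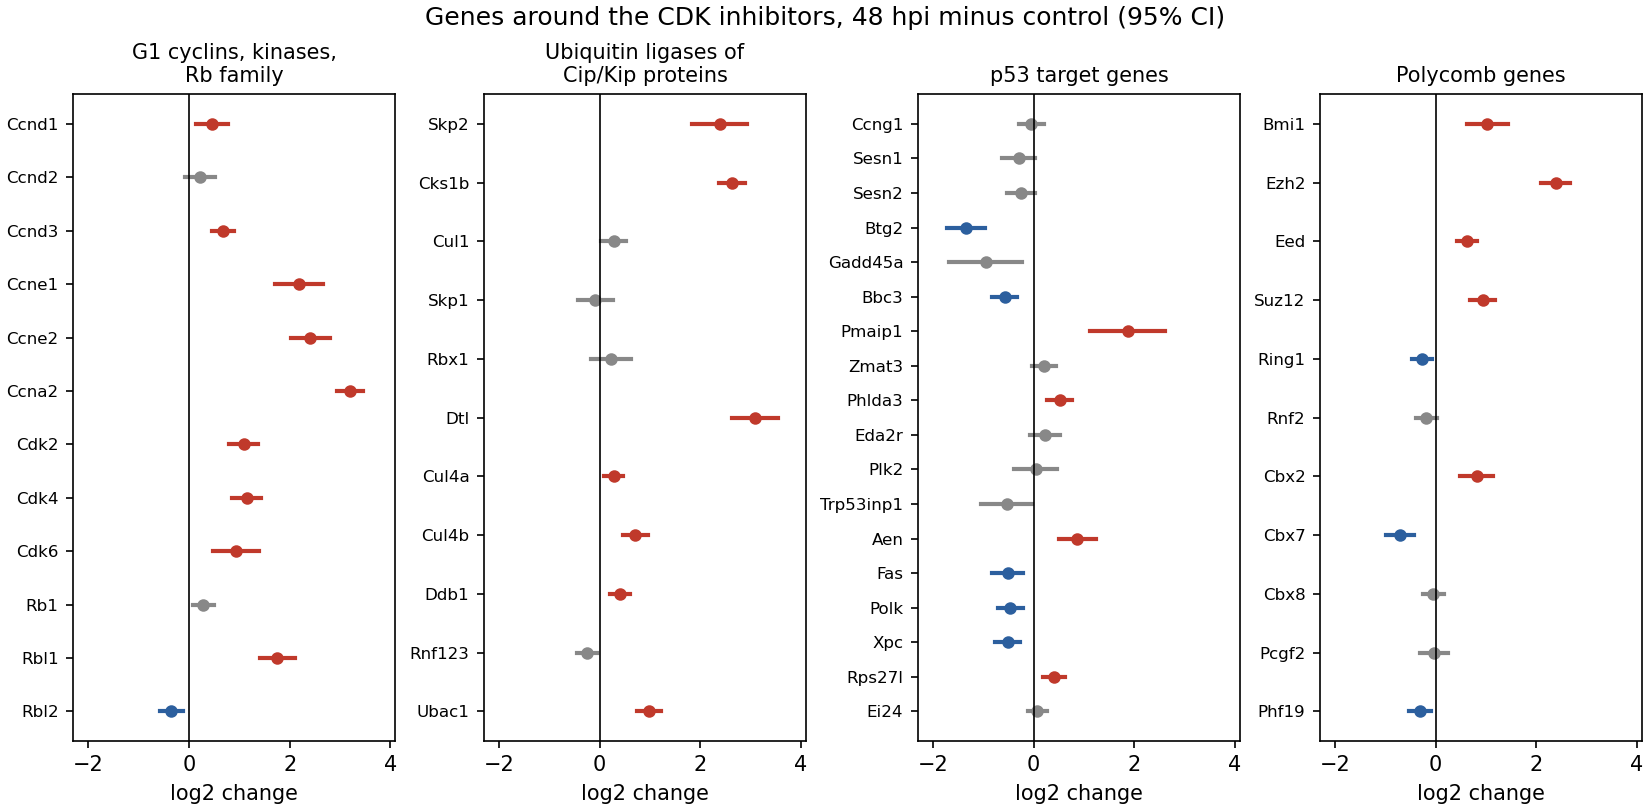
Log2 change (48 hpi minus control) with 95% confidence interval, on the brightest probe set, of the G1 cyclins, their kinases and the retinoblastoma family, of ubiquitin ligase genes, of p53 targets and of Polycomb genes. Red and blue mark genes called higher and lower, and grey those not called. In the first panel 9 of 12 genes are red, in the second 7 of 11, in the third 4 of 18 and in the fourth 5 of 11.

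The labelled tissue was checked by its markers. Basal, secretory and proliferation markers were all above background in both groups, whereas Ptprc, which encodes CD45, was below it, at 2.83 at 48 hpi and 3.04 in control epithelium. The basal marker list (8 genes) had 3 higher, Krt14 by 3.18 (SE 0.34), Itga6 by 0.80 (SE 0.12) and Krt5 by 0.69 (SE 0.11), and 3 lower, Dapl1 at -0.95 (SE 0.20), Ngfr at -0.66 (SE 0.14) and Pdpn at -0.35 (SE 0.10). Its median change was -0.09, and the lower count was 0 with equal hybridization controls and 4 with repeated quantile normalization. The list had a summed signal of 14.15 to 14.33 at 48 hpi and 13.89 to 13.95 in control pools on the log2 scale. Of 8 secretory markers 6 were lower and 0 higher, with 15.62 to 16.43 at 48 hpi and 16.93 to 16.97 in control pools, and 4 were lower under each of the 3 other scalings. Of 7 ciliated markers 5 were lower and 0 higher, with 8.40 to 9.47 at 48 hpi and 9.25 to 10.25 in control pools, ranges that overlap, and 3 or 4 were lower under the other scalings. Of 5 tuft, neuroendocrine and ionocyte markers 3 were lower, with 6.90 to 7.33 at 48 hpi and 7.69 to 7.75 in control pools, and 1 with equal hybridization controls. Of 4 platelet markers Ppbp was higher by 8.49 (SE 0.20) and the other 3 were not called, with 11.81 to 12.25 at 48 hpi and 7.30 to 7.63 in control pools. Of 10 leukocyte markers 1 was lower, with 3 above background in each group and 7.96 to 8.14 at 48 hpi against 8.22 to 8.34 in control pools. The 48 hpi replicate with the lowest secretory and ciliated signal was replicate 3, without which Cdkn2c, Cdkn2d and Cdkn1c changed by 1.01, 0.79 and -0.91. These markers moved in the same pools as the CDK inhibitors, and their part in the changes of Cdkn1c, Cdkn2c and Cdkn2d was not tested.

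**Figure D5:**
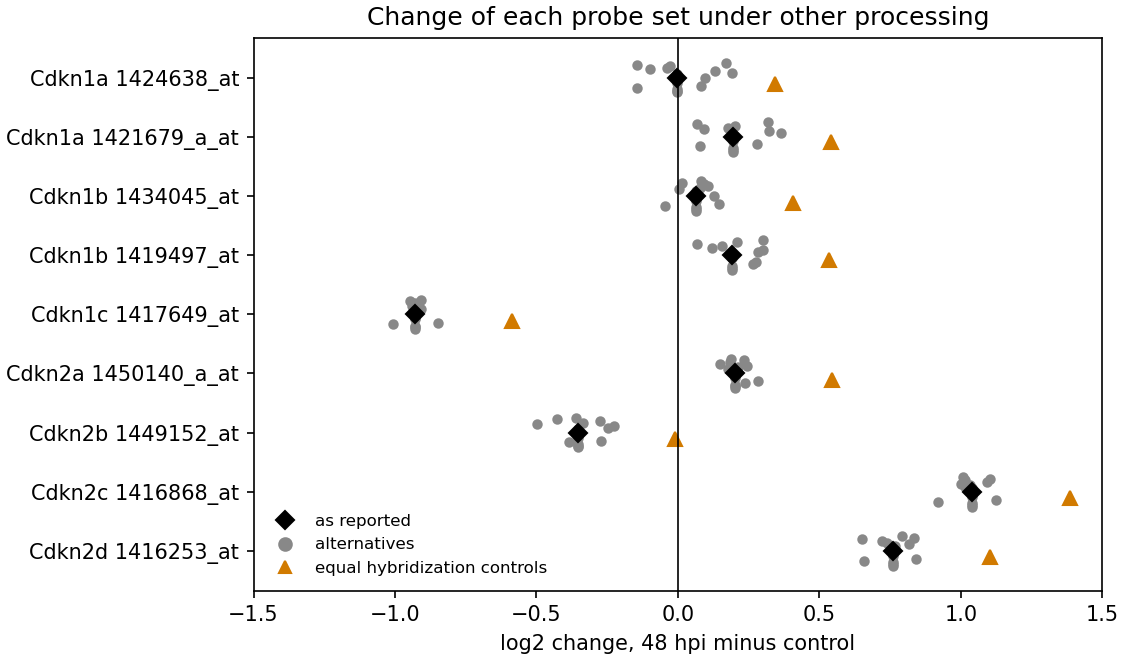
Log2 change (48 hpi minus control) of each CDK inhibitor probe set as reported (diamonds) and under the alternative settings (grey circles), with the setting of equal hybridization controls as triangles. Cdkn2c (0.92 to 1.38) and Cdkn2d (0.65 to 1.1) stay above zero and Cdkn1c (-1.01 to -0.59) below it, while the brighter Cdkn1a probe set falls on either side of zero.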

How the data were processed

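RNA of 3 pools of 48 hpi and 3 pools of control tracheal epithelium was profiled on Affymetrix mouse arrays. The deposited values are log2 expression. The authors' methods state that they amplified the RNA with MessageAmp Premier and normalized the arrays by RMA in Partek 6.5, and the submitters' processing notes also name Affymetrix Expression Console 1.1. The array medians differ slightly between the groups, so alternative scalings were tried. No detection calls were used.

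The table lists 45101 probe sets, of which 64 control probe sets were left out. The array annotation gave 1 symbol for 34945 of the others, several for 932 and none for 9160. All 7 members matched RefSeq (GRCm38.p6) by Entrez ID, and no probe set with several symbols names a member. Levels of different probe sets were compared only to set the background, to choose the brightest probe set of a gene and in the summed signals of lists.

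Groups were taken from the sample titles and tested in R 4.3.3 with default settings of lmFit and eBayes (limma 3.58.1) and no block, with Benjamini-Hochberg adjustment over 45037 probe sets and a threshold of 0.05. The fit was tested on simulated data. Lists were counted on the probe set that was brightest on average over all 6 arrays. The members, the lists, the tests and the alternatives were chosen with earlier results of these data known. In lists of 12 or fewer genes any member could be named, and in longer ones the 4 called with the smallest p. The p53 decamer motif and the neighbouring genes were added later. Alternatives covered the variance model, an equal-variance test of each probe set alone (the 2-group form of the analysis of variance that the methods name), array scaling, filters, the choice of probe set, a replicate block, array weights, leaving out each array, and stricter thresholds. The number of arrays limits the precision. Python 3.11.15 with matplotlib 3.10.9 drew the plots.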

Additional observations from a re-analysis of the deposited data

How the results depend on the processing

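The counts of member probe sets called higher and lower were 2 and 1, and they were the same in all alternatives except with equal hybridization controls (2 and 0, Cdkn1c being lost) and without control replicate 2 (2 and 2, Cdkn2b being added). Leaving out each array in turn gave 2 higher in every case and 1 to 2 lower. Over all probe sets 6512 were higher and 6267 lower. These counts were 5210 to 5904 higher and 4051 to 5860 lower when an array was left out, with 4051 lower without control replicate 2. They were 3990 and 3373 with an added minimum of 1.5-fold, 4409 and 2971 at an adjusted p below 0.01, 4711 and 2948 with the equal-variance test of each probe set alone, 3527 and 3191 with the brightest probe set per gene and 3314 and 2960 with the mean per gene, where 18193 genes were tested. With equal hybridization controls, whose mean was 11.7 in control replicate 1 against 10.9 to 11.2 on the other arrays, 8064 were higher and 1480 lower, so that 84.5% of calls were higher in place of 51.0%, and with a common median 8068 and 4522, or 64.1%. With the equal-variance test the share was 61.5%. The cause of these shifts was not tested.

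The brighter Cdkn1a probe set, at -0.0014, changed sign to 0.081 with a common median, 0.34 with equal hybridization controls, 0.098 as the mean of its probe sets and 0.19 with array weights, and ranged from -0.15 to 0.17 when an array was left out (0.13 without control replicate 1 and 0.17 without 48 hpi replicate 3), and the brighter Cdkn1b probe set changed to -0.047 with repeated quantile normalization. None of these passed the test. Over the alternatives the adjusted p by limma or the equal-variance test reached at most 0.0122 for Cdkn2c, 0.033 for Cdkn2d and 0.0627 for Cdkn1c.

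The replicate numbers in the titles are shared by the groups, but the deviations of same-numbered pools correlated at 0.20, 0.08 and 0.19. Since 1 pair was below 0.1 and the labels do not say that a number marks a shared batch, the numbers were not used as pairs, and whether such pools were prepared together is not known. With the replicate block 6533 probe sets were higher and 7019 lower, 2 and 1 of them members, and the block changed no call of a member.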

Other observations

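The nearest measured protein-coding genes, 2 on each side of each member, were looked up in RefSeq (GRCm38.p6) after the members had been described. Of 24 such neighbours 5 were higher at 48 hpi, 6 lower and 13 not called, beside 18.4% higher and 16.1% lower among all genes. With so few genes these counts do not set the neighbours apart from genes in general. On chromosome 7, Cdkn1c lies in an imprinted cluster together with Kcnq1, a potassium channel gene, Slc22a18, a transporter gene, and Phlda2. Slc22a18 averaged 6.37 at 48 hpi and 7.45 in control epithelium, a log2 change of -1.08 (SE 0.13, adjusted p = 0.000761 by limma). Kcnq1 was lower at -0.47 (SE 0.13) and Trpm5, a channel gene of tuft cells, at -0.99 (SE 0.16), while Phlda2 was at 0.54 and was not called (adjusted p = 0.0514 by limma). Beside Cdkn2d on chromosome 9, Ap1m2 and Kri1 were higher at 0.59 and 0.47, Slc44a2 was lower at -0.42 and Atg4d at -0.06 was not called. Beside Cdkn2c on chromosome 4, Faf1 was higher at 0.42 and Rnf11 lower at -0.50. The genes next to Cdkn1a on chromosome 17 included Srsf3, a splicing factor gene that was higher by 1.16 (SE 0.10), and those next to Cdkn1b on chromosome 6 included Crebl2, lower at -1.27 (SE 0.13), and Ddx47, higher by 0.42.

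The genes whose pattern over the 6 arrays was most like that of a called member, among 12279 genes above background, were Haus1 and Septin7 for Cdkn2c (r of 0.999 each), Otop3 and Nsmce4a for Cdkn2d (r of 0.998 and 0.997), and Gm32031 and Pkd1 for Cdkn1c (r of 0.999 each). The arrays fall into 2 groups, so any gene with a clear change in the same direction correlates highly, and 2846, 1695 and 1972 genes had an r above 0.9 with Cdkn2c, Cdkn2d and Cdkn1c.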
